A study of Mus musculus with 8 samples.

Results

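The 40 genes described here were listed from textbook knowledge of the dividing cell, by a choice made with earlier results of these data known. They comprise 17 genes that work in S phase, when DNA is copied, and 23 that work in mitosis, when the copies are separated. All 40 were found by symbol among the 35944 genes to which the deposited transcripts were summed. The samples were mouse buffy coats, the thin layer of leukocytes and platelets that forms between plasma and red cells when blood is spun. Exposure to PM2.5, the fine particle fraction of air pollution, or to the control PBS (a buffered salt solution) lasted 24 weeks. There were 4 libraries per group, numbered 9, 17, 18 and 21 for PM2.5 and 4, 10, 12 and 16 for PBS in the labels and called replicates here. The sources used here do not give strain, sex, age, dose or route, nor whether each library came from a separate animal. The p-values therefore measure the spread between these samples.

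A cell that is about to divide first licenses its replication origins with Cdc6, Cdt1 and the MCM helicase, then copies its DNA, and then switches on the cyclin B kinase, the spindle and the proteins that hold and release the chromosomes. Genes of S phase are commonly switched on by E2F factors at the boundary between G1 and S. Many genes of mitosis are held off earlier in the cycle by the DREAM complex and switched on later by B-MYB and FOXM1, through a promoter element called the CHR (cell cycle genes homology region) and nearby CCAAT boxes. Most circulating white cells are not dividing, and the mature red cell of mammals has no nucleus, so transcripts of both phases are normally scarce in blood.

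The libraries held 72081019 to 89032794 expected counts, of which the 4 haemoglobin genes took 82.31% to 88.62%, so that red cell RNA was the main content of a layer named for white cells. This left 9615115 to 12714432 counts per library for every other gene. Levels are given as CPM (counts divided by the library size in units of 1000000, haemoglobin included, scaled by TMM, the trimmed mean of M-values) when groups are compared. FPKM, the authors' unit, which divides by transcript length as well as by library size, is used when genes are compared with each other. A detection limit of 3 counts corresponded to 0.0273 CPM in PBS replicate 16 and to 0.0555 CPM in PM2.5 replicate 18, the ends of the range. Limits and intervals cover counting error only.

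The promoters of the 2 classes differed in how often they held 2 kinds of short sequence match. RefSeq promoter windows (GRCm38.p6, 250 bases before to 50 bases after the start of transcription, 300 bases in all) were matched by symbol for 33 of the 40 genes, 14 of S phase and 19 of mitosis. An E2F-type match, TTCCCGC or TTGGCGC on either strand, was found for 8 of the 14 S phase genes (57.1%), for 3 of the 19 mitosis genes (15.8%) and in 6.81% of all 32851 windows. A CHR-type match, TTTGAA or TTCGAA on either strand, was found for 3 S phase genes (21.4%), for 15 mitosis genes (78.9%) and in 19.2% of all windows. CCAAT on either strand was found for 71.4% of S phase genes, 89.5% of mitosis genes and 37.4% of all windows, and all 15 mitosis genes with a CHR-type match also held a CCAAT. A reversed TTGGCGC that is followed by T also spells CCAAT, so these counts can share letters. A match is a run of letters and was not tested for binding.

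The 5 promoters below are shown because they carry these matches before the transcription start, outside annotated exons. Each is written 5′ to 3′ on the gene's own strand up to the last base before the start, with the phase's motif and CCAAT (or its reverse ATTGG) in capitals. Mcm6, a helicase subunit (chr1:128359706-128359865, minus strand), and Rrm1, the large subunit of the reductase that makes deoxyribonucleotides (chr7:102441535-102441694, plus strand), stand for S phase. In Mcm6 the E2F-type matches begin at -109 and -46 from the start, and in Rrm1 the match begins at -67. Bub1b, the checkpoint kinase BubR1 (chr2:118598003-118598210, plus strand), and Mki67, the antigen Ki-67 that coats mitotic chromosomes (chr7:135716380-135716539, minus strand), stand for mitosis. Their CHR-type matches begin at -188 in Bub1b and at -116 and -98 in Mki67. The Mki67 stretch also holds an E2F-type match, TTGGCGC, left in lower case because it is the motif of the other phase. Kif11, the spindle motor Eg5 (chr19:37376222-37376381, plus strand), was added after its values were seen because it passed the test described below. Its CHR-type match begins at -19.
Mcm6: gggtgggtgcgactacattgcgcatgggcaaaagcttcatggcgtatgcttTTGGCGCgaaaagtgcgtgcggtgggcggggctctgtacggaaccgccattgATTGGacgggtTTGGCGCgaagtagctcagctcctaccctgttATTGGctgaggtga
Rrm1: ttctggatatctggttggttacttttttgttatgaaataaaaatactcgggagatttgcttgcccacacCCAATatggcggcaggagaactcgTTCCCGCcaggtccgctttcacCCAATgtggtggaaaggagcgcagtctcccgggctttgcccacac
Bub1b: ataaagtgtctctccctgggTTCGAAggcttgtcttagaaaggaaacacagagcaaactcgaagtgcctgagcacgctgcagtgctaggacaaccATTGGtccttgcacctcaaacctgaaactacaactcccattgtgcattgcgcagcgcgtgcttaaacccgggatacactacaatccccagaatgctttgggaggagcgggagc
Mki67: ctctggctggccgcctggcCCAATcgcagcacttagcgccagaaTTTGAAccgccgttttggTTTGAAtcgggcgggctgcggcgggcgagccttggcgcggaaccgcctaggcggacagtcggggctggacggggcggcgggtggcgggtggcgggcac
Kif11: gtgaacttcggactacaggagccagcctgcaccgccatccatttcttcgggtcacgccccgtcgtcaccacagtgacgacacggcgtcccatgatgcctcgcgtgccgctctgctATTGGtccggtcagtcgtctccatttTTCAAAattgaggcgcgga

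Transcripts of both phases were a small part of the counts, and mitosis genes held most of them. All 40 genes together took 0.0157% to 0.0275% of each library's counts, haemoglobin included. Of the 40, 28 had a mean over the 8 libraries under 1 FPKM, 14 in each phase. At least 1 FPKM in at least 4 libraries was reached by 5 S phase genes, 9 mitosis genes and 3658 of all 35944 genes. Summed FPKM of the mitosis genes was 13.9 ± 2.06 times that of the S phase genes with PM2.5 and 11.8 ± 2.67 times with PBS (n = 4 each, SD), and the library ratios overlapped, 11 to 15.9 against 8.95 to 15.2. This excess rested on few genes. Ube2c, the ubiquitin-conjugating enzyme that works with the anaphase-promoting complex, and Nusap1, a spindle microtubule protein, made up 75.6% ± 2.26 of the mitosis FPKM with PM2.5 and 76.8% ± 0.85 with PBS. Without Ube2c, Nusap1 and Bub1b the ratio was 1.85 ± 0.29 with PM2.5 and 1.79 ± 0.311 with PBS.

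Within mitosis the mean FPKM over all libraries ran from 73.3 for Ube2c, 33.9 for Nusap1 and 13.1 for Bub1b through 4.69 for Ccna2 (cyclin A2), 3.69 for Mki67 and 2.40 for Ccnb2 (cyclin B2) down to 0.0462 for Plk1, a kinase of spindle assembly and mitotic exit. Ranks 13, 14 and 18 of the 23 belonged to core regulators of mitosis: Ccnb1, cyclin B1, stood at 0.307 FPKM, its kinase Cdk1 at 0.261, and Cdc20, which activates the anaphase-promoting complex, at 0.177. Within S phase the range was narrower, from 1.98 FPKM for Rrm2 (small subunit of ribonucleotide reductase), 1.72 for Pcna (the sliding clamp of DNA polymerase), 1.19 for Tyms (thymidylate synthase) and 0.991 for Ccne2 (cyclin E2) down to 0.149 for Cdc45, which joins the helicase, among the genes tested. The highest S phase gene was 13.3 times the lowest one tested, and the highest mitosis gene was 645 times the lowest one tested. Neighbours in these orders often overlapped between libraries, as the plot of levels shows.

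**Figure D1:**
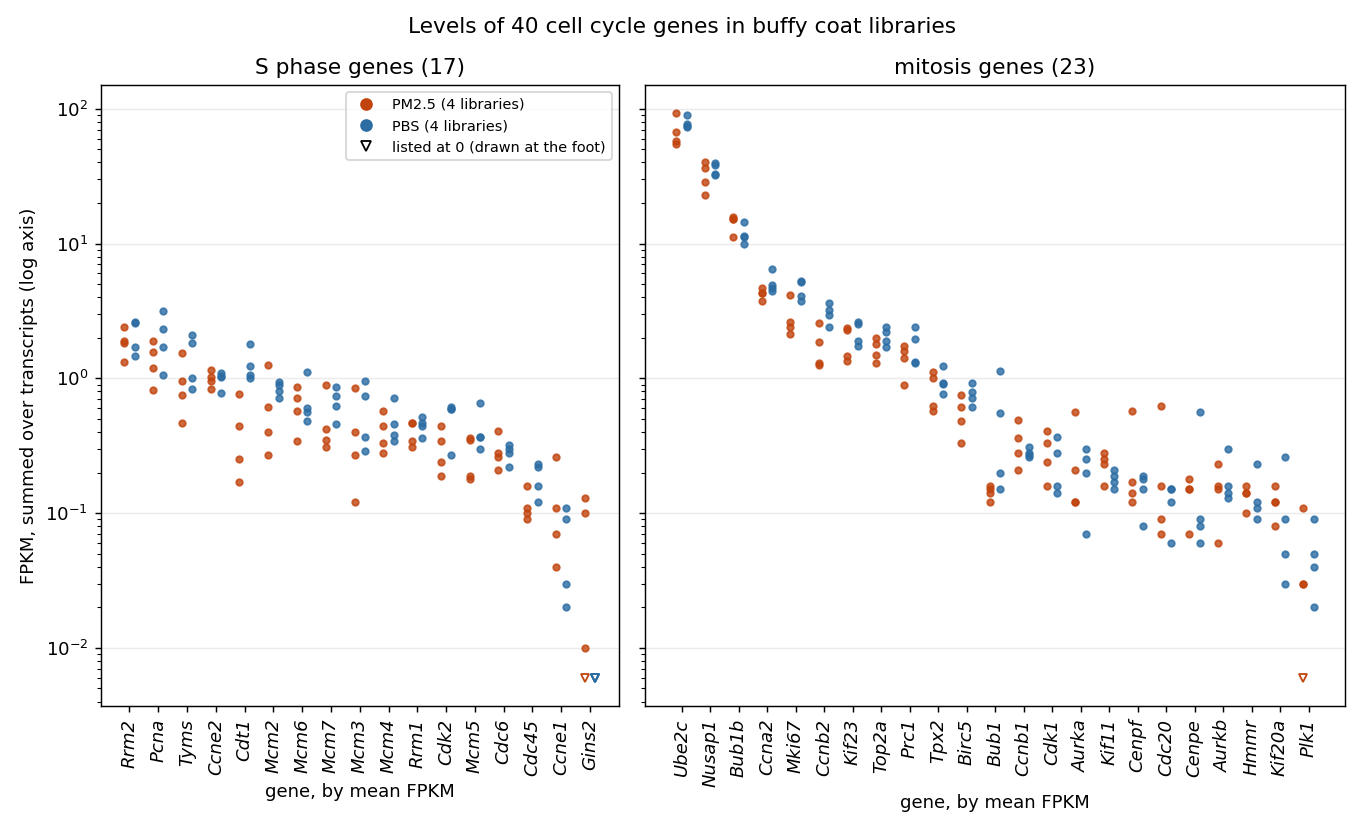
FPKM of each of the 40 genes (log axis) in the 4 PM2.5 and 4 PBS libraries, genes ordered by their mean within each phase, 1 point a library. Ube2c, Nusap1 and Bub1b (means 73.3, 33.9 and 13.1 FPKM) stand above every S phase gene, and most other genes lie near or under 1 FPKM.

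The transcripts behind a level were not always the coding ones. More than 80% of the counts came from protein coding transcripts in 33 of the 40 genes, Ube2c and Nusap1 included. In Bub1b, 76% of the counts sat on the retained intron transcript Bub1b-202 of 661 bases, which gave 12.6 of its 13.1 FPKM. The coding transcript Bub1b-201 held 23.9% of the counts and stood at 0.432 FPKM. The share on Bub1b-202 was 75.9% ± 4.64 with PM2.5 and 75.4% ± 3.29 with PBS (n = 4 each, SD), so the groups differed by less than their spread. Protein coding transcripts also held under 50% of the counts in Cdk2, the S phase kinase (44%), and Gins2, a subunit of the GINS complex of the replicative helicase (33.5%). As annotated, 11 genes overlap a protein coding gene on the opposite strand, among them Ccna2, Cdc20, Ube2c, Kif20a, Nusap1 and Prc1 of the mitosis genes, and Ccne2, Cdk2, Mcm7, Cdc45 and Gins2 of the S phase genes. The libraries were made to keep strand, but the sources used here do not say whether counting used it.

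The comparison of PM2.5 with PBS asked which transcripts differed after exposure. Mitosis genes were mostly higher with PM2.5 and S phase genes were divided, but of all 40 only Kif11, a mitosis gene, passed the test. Of 22 mitosis genes tested, 19 had a positive log2 fold change under TMM scaling and 11 under scaling to library totals. Of 15 S phase genes tested, 9 were positive under TMM scaling and 2 under library totals. Among all genes tested, 54.4% were positive under TMM. The median log2 fold change was 0.50 for mitosis (quartiles 0.32 and 0.65) and 0.11 for S phase (quartiles -0.12 and 0.34), against 0.04 for all 10361 genes tested. Scaling to library totals moved the median of all genes to -0.52, mitosis to -0.04 and S phase to -0.44, so that mitosis lay 0.46 above all genes under TMM and 0.49 above under totals, and S phase 0.06 and 0.08 above. These medians describe the lists and were not tested.

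Kif11 was 1 gene called among the 37 tested (edgeR quasi-likelihood test, two-sided, Benjamini-Hochberg adjusted p under 0.05 over all genes). The same rule called 166 of 10361 genes, 1.60%, with 48 higher (0.463%) and 118 lower (1.14%) with PM2.5. Under library totals it called 483, of which 8 were higher and 475 lower. At an unadjusted p under 0.05, 8 mitosis genes passed, all higher, and 4 S phase genes were split, 2 higher and 2 lower, where 8.79% of all genes passed higher and 9.24% lower. The CPM of 3 tested members did not overlap between the groups, all 3 in mitosis and higher with PM2.5, against 9.66% of all genes, 3.01% higher and 6.65% lower. DESeq2 on the same counts called 4 members (Cdt1, Kif11, Kif20a and Hmmr), where it called 3.88% of genes, and edgeR without a filter called 4 (Cdt1, Bub1b, Kif11 and Hmmr), where it called 3.46%. The 4 calls of DESeq2 and of edgeR without a filter were a larger share of the members than of all genes. A single call is too few to tell the share of the members from that of all genes. This holds for Kif11 under TMM and for Cdt1, the 1 member called under library totals. The 3 members that did not overlap were a smaller share than among all genes in either direction and a larger one in the higher direction.

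**Figure D2:**
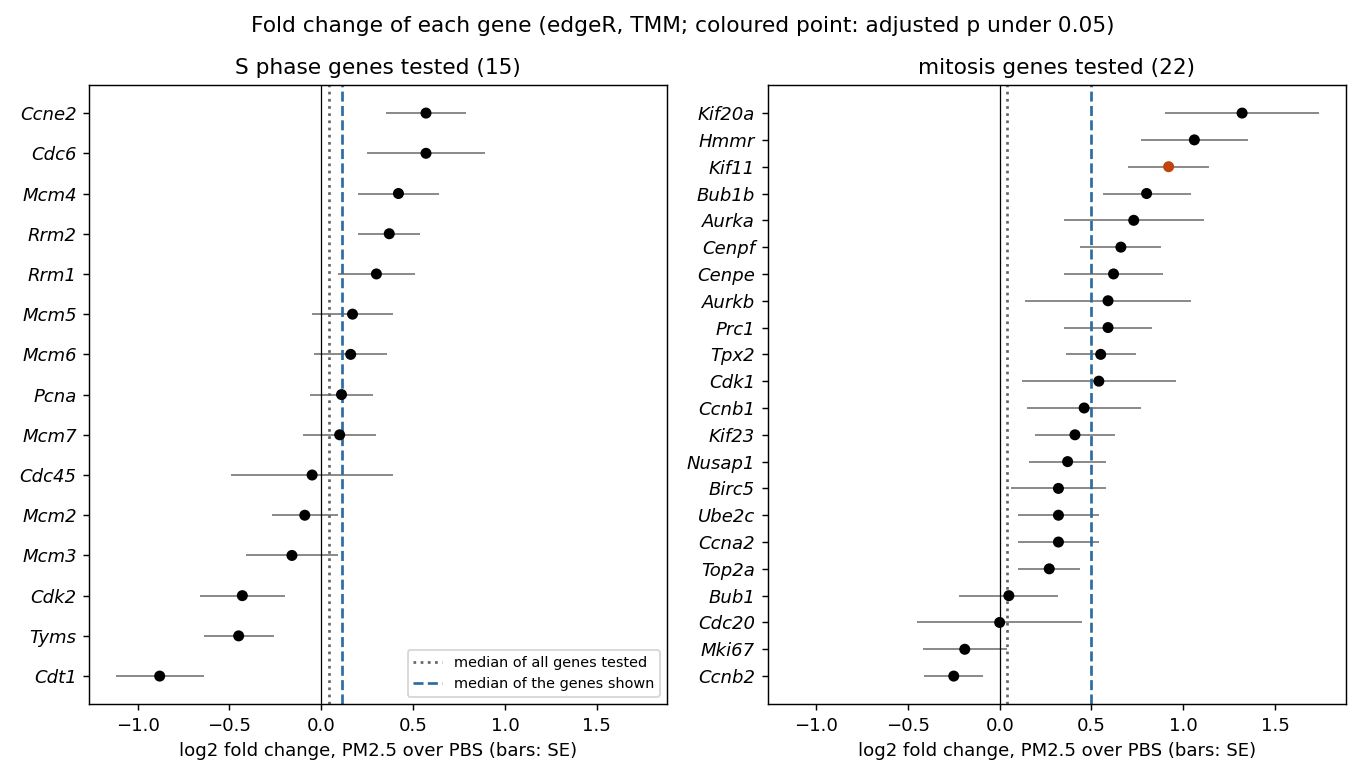
Log2 fold change (PM2.5 over PBS) with its SE for the 15 S phase and 22 mitosis genes tested, ordered by size, with dashed lines at each class's median (0.11 and 0.50) and dotted lines at the median of all genes tested (0.04). Kif11 is the 1 coloured point, past adjusted p 0.05, and Cdc20, Mki67 and Ccnb2 are the mitosis genes at or below 0.

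The largest positive differences were those of Kif20a, Hmmr and Kif11. Kif11 (chr19:37376403-37421859, plus strand, GRCm38) is the motor that pushes the spindle poles apart, and its promoter is shown above. It stood at 1.01, 1.10, 1.65 and 1.31 CPM in PM2.5 replicates 9, 17, 18 and 21 and at 0.517, 0.615, 0.824 and 0.731 CPM in PBS replicates 4, 10, 12 and 16. Every PM2.5 library was above every PBS library, with PM2.5 replicate 18 the highest and PBS replicate 12 the highest control. The means were 1.27 ± 0.283 and 0.672 ± 0.134 CPM (SD, n = 4 each), and Kif11 rose by a log2 fold change of 0.92 (SE 0.22, edgeR adjusted p = 0.0478). The call was lost without PM2.5 replicate 17, 18 or 21 and without PBS replicate 4, 10 or 16 (adjusted p 0.0631 to 0.192), and held without PM2.5 replicate 9 or PBS replicate 12. It was lost under library totals (log2 fold change 0.36, edgeR adjusted p = 0.513) and with protein coding transcripts alone (0.87, edgeR adjusted p = 0.128). The coding transcript Kif11-201 held 99.7% of the Kif11 counts, and the fit on protein coding transcripts called 49 of 9557 genes.

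Kif20a, the motor MKLP2 of the central spindle, did not pass the test. Its level was 0.311, 0.476, 0.296 and 0.226 CPM with PM2.5, in the same order of replicates, and 0.165, 0.056, 0.162 and 0.136 CPM with PBS. The groups did not overlap, with PM2.5 replicate 17 the highest and PBS replicate 10 the lowest. The log2 fold change was 1.32 (SE 0.42, edgeR adjusted p = 0.119; DESeq2 adjusted p = 0.0478; 0.74 under library totals, adjusted p = 0.355), from 86 counts in the PM2.5 group and 51 in the PBS group. With protein coding transcripts alone it was 0.91 (edgeR adjusted p = 0.418). The share of Kif20a counts on its coding transcript Kif20a-201 ran from 0% to 100% between libraries. Hmmr, a microtubule-binding protein that helps organise spindle poles (chr11:40701395-40733422, minus strand), also kept its groups apart. It stood at 0.448, 0.550, 0.796 and 0.594 CPM with PM2.5 and at 0.192, 0.280, 0.378 and 0.302 CPM with PBS, again with PM2.5 replicate 18 and PBS replicate 12 highest in their groups. Its log2 fold change was 1.06 (SE 0.29, edgeR adjusted p = 0.076; DESeq2 adjusted p = 0.0272; 0.50 under library totals, adjusted p = 0.431).

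The other spindle genes had smaller positive values that did not pass. The log2 fold change was 0.41 for Kif23, a motor of the central spindle, 0.59 for Prc1, which bundles its microtubules, and 0.55 for Tpx2, which activates Aurora A. Nusap1 (chr2:119618298-119651244, plus strand) stood at 88.1, 96.3, 121 and 110 CPM with PM2.5 and at 68.8, 64.7, 105 and 83.6 CPM with PBS. The groups overlapped through PBS replicate 12, the only control above 2 of the exposed libraries, and the log2 fold change was 0.37 (SE 0.21, edgeR adjusted p = 0.366), with -0.17 under library totals. Cenpe, a kinetochore motor, and Cenpf, a kinetochore protein, had log2 fold changes of 0.62 and 0.66.

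Checkpoint and anaphase genes ranged from no difference to a value near that of Kif11. Bub1b (chr2:118598211-118641591, plus strand) stood at 6.32, 8.76, 11.0 and 6.91 CPM with PM2.5 and at 3.61, 3.88, 7.79 and 3.76 CPM with PBS. PBS replicate 12 lay within the exposed range and the other controls lay below it. The log2 fold change was 0.80 (SE 0.24, edgeR adjusted p = 0.105), 0.75 with protein coding transcripts alone (adjusted p = 0.192) and 0.26 under library totals. Its partner kinase Bub1 was at 0.05 and Cdc20 at 0.00 (SE 0.45), the latter on 40 counts with PM2.5 and 58 with PBS. Ube2c (chr2:164769898-164778822, plus strand) stood at 40.4, 60.3, 57.7 and 62.9 CPM with PM2.5 and at 40.1, 36.1, 62.3 and 39.2 CPM with PBS. PM2.5 replicate 9 was level with the controls and PBS replicate 12 with the exposed libraries, and the log2 fold change was 0.32 (SE 0.22, edgeR adjusted p = 0.448; -0.22 under library totals).

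Mitotic kinases and cyclins did not pass in either direction. Aurka and Aurkb, the Aurora kinases, and Cdk1 had log2 fold changes of 0.73, 0.59 and 0.54 with SEs of 0.38, 0.45 and 0.42. Ccna2 (chr3:36564865-36572150, minus strand) stood at 10.3, 15.6, 18.1 and 12.4 CPM with PM2.5 and at 11.3, 9.06, 15.8 and 9.16 CPM with PBS. The groups overlapped at both ends, and its log2 fold change of 0.32 (SE 0.22) was -0.26 under library totals. The B cyclins had opposite signs, 0.46 for Ccnb1 and -0.25 for Ccnb2. Mki67, the usual histological marker of proliferation (chr7:135689784-135716361, minus strand), stood at 14.1, 17.2, 21.8 and 29.4 CPM with PM2.5 and at 23.3, 17.2, 29.9 and 23.4 CPM with PBS. Both groups spanned nearly the same range, and the log2 fold change was -0.19 (SE 0.23, edgeR adjusted p = 0.693). Top2a, the topoisomerase that untangles sister chromatids, was at 0.27, and Birc5 (survivin), which targets Aurora B to the centromere, at 0.32.

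**Figure D3:**
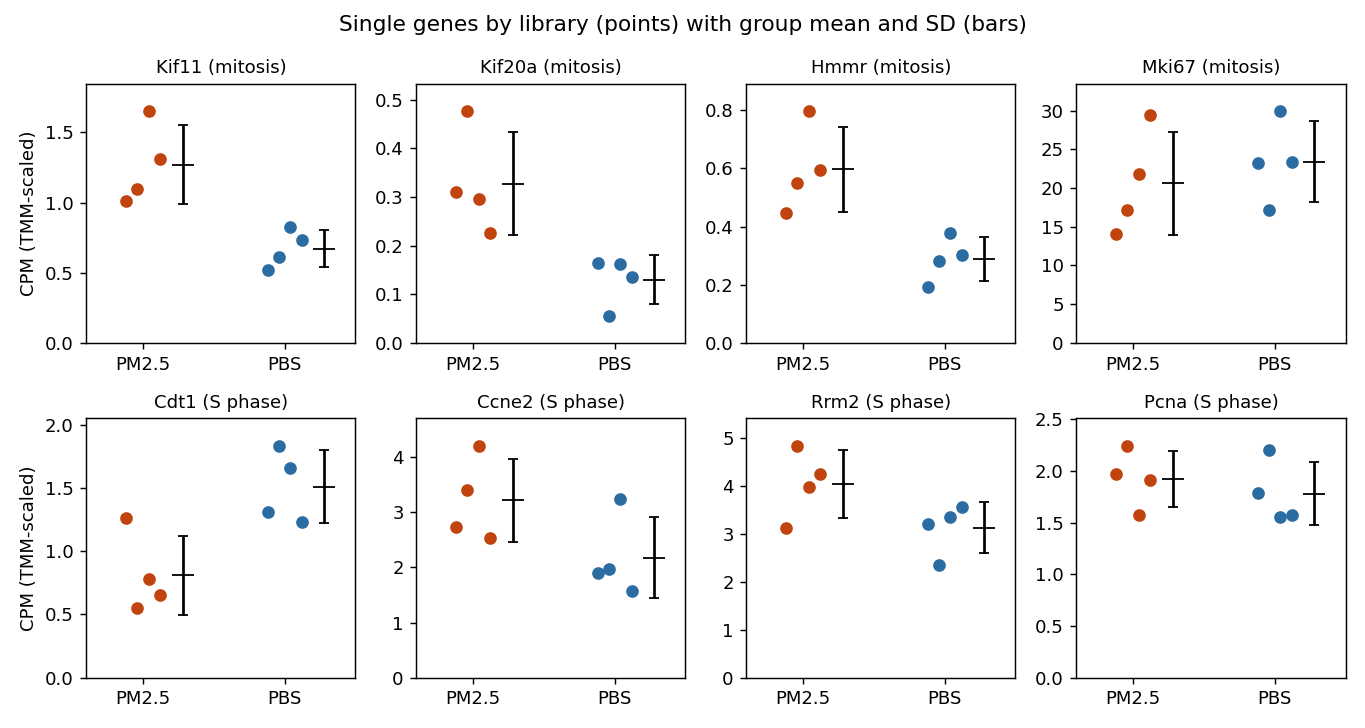
CPM (TMM-scaled) of 8 genes, 4 of each phase, 1 point a library, with the mean and SD of each group of 4. The groups stand apart for Kif11, Kif20a and Hmmr and overlap for Mki67, Cdt1, Ccne2, Rrm2 and Pcna, with Cdt1 lower with PM2.5 apart from replicate 9, at 1.26 CPM.

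Differences among S phase genes went in both directions and none passed the test. Cdt1, the licensing factor that loads the MCM helicase (chr8:122568015-122573554, plus strand), had the largest absolute difference. It stood at 1.26, 0.550, 0.777 and 0.653 CPM with PM2.5 and at 1.31, 1.83, 1.66 and 1.23 CPM with PBS. PM2.5 replicate 9 lay among the controls and the other exposed libraries below them. The log2 fold change was -0.88 (SE 0.24, edgeR adjusted p = 0.0784; DESeq2 adjusted p = 0.0372), and -1.37 under library totals (adjusted p = 0.032). With protein coding transcripts alone it was -0.78 (edgeR adjusted p = 0.358), and 28.7% of the Cdt1 counts sat on retained intron transcripts. With the erythroid covariate described below the log2 fold change was -0.57 (edgeR adjusted p = 0.557). Cdc6, its partner in licensing (chr11:98907801-98923940, plus strand), had the opposite sign. It stood at 0.647, 0.935, 1.70 and 0.748 CPM with PM2.5 and at 0.384, 0.597, 1.08 and 0.645 CPM with PBS, overlapping, with a log2 fold change of 0.57 (SE 0.32, edgeR adjusted p = 0.351). This value was 0.01 under library totals and ran from 0.21 (without PM2.5 replicate 18) to 0.87 (without PBS replicate 12) when 1 library was left out. Leaving out PM2.5 replicates 17 and 18 together gave 0.07.

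Under TMM the 6 MCM helicase subunits, which act as 1 ring, lay close to no difference apart from Mcm4. Their log2 fold changes ran from -0.16 for Mcm3 and -0.09 for Mcm2 through 0.10 for Mcm7, 0.16 for Mcm6 and 0.17 for Mcm5 to 0.42 for Mcm4, with SEs of 0.18 to 0.25. Summed over the 6, the level was 7.15 ± 0.798 CPM with PM2.5 and 6.67 ± 0.96 CPM with PBS (SD, n = 4 each), a difference smaller than either SD. Under library totals the log2 fold changes of all 6 were negative, from -0.70 for Mcm3 to -0.11 for Mcm4, and none passed. Cdc45 was at -0.05 under TMM, with an SE of 0.44.

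The cyclin E genes and their kinase differed in sign. Ccne2 (chr4:11191351-11204779, plus strand) stood at 2.73, 3.41, 4.20 and 2.53 CPM with PM2.5 and at 1.89, 1.98, 3.25 and 1.58 CPM with PBS. Only PBS replicate 12 entered the exposed range, and the log2 fold change of 0.57 (SE 0.22, edgeR adjusted p = 0.195) passed without that library (adjusted p = 0.0495). It did not pass without any other single library (adjusted p up to 0.474, without PBS replicate 10), and it was 0.01 under library totals (adjusted p = 0.984) and 0.20 with the erythroid covariate described below. Cdk2 was at -0.43 (SE 0.23, edgeR adjusted p = 0.325).

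Genes of nucleotide supply and the polymerase clamp were also split. Rrm2 (chr12:24708241-24714146, plus strand) stood at 3.12, 4.82, 3.96 and 4.25 CPM with PM2.5 and at 3.20, 2.35, 3.35 and 3.56 CPM with PBS. PM2.5 replicate 9 lay within the controls, and the log2 fold change was 0.37 (SE 0.17, edgeR adjusted p = 0.267; -0.22 under library totals). Rrm1 was at 0.30. Tyms (chr5:30058202-30073617, minus strand) went the other way, at 1.20, 1.17, 1.55 and 1.62 CPM with PM2.5 and at 1.48, 2.06, 1.65 and 2.43 CPM with PBS. The groups overlapped through PBS replicate 4, and the log2 fold change was -0.45 (SE 0.19, edgeR adjusted p = 0.236). Pcna (chr2:132249162-132253314, minus strand) stood at 1.97, 2.24, 1.57 and 1.91 CPM with PM2.5 and at 1.79, 2.20, 1.55 and 1.57 CPM with PBS, with its groups overlapping over nearly their whole range and a log2 fold change of 0.11 (SE 0.17, edgeR adjusted p = 0.766; -0.47 under library totals).

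Detection limits decided 3 genes, too low for the test, which asked for about 10 counts in 4 libraries. Ccne1 (cyclin E1) had 14, 11, 6 and 4 counts with PM2.5 and 4, 3, 5 and 13 with PBS. Plk1 had 15, 5, 0 and 5 counts with PM2.5 and 3, 6, 3 and 15 with PBS, so PM2.5 replicate 18 held no count, which allows up to 0.0555 CPM there. Their groups overlapped in counts. Gins2 (chr8:120578633-120589304, minus strand) had 8, 6, 1 and 2 counts with PM2.5 and 1, 0, 0 and 1 with PBS, with limits of 0.0280 and 0.0405 CPM in the 2 libraries at 0 and a ratio of pooled CPM of 12.5 with an exact 95% interval of 2.96 to 111 for counting error. Most of the Gins2 counts, 66.5%, sat on retained intron transcripts, and all 10672 bases of the gene lie within Gm20388 on the opposite strand, 2758 of them also within Gse1. With no filter its edgeR adjusted p was 0.197. Among the genes tested, Cdk1 and Cdc20 rested on the fewest counts, 51 and 50 for Cdk1 and 40 and 58 for Cdc20, with exact Poisson 95% intervals of the pooled level of 0.139 to 0.245 CPM and 0.0926 to 0.165 CPM for Cdk1.

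The phases also differed in how their TMM-scaled CPM varied between libraries. The median deviation of the mitosis genes from each gene's own mean log2 level was -0.02, 0.25, 0.51 and 0.23 in PM2.5 replicates 9, 17, 18 and 21 and -0.31, -0.45, 0.20 and -0.26 in PBS replicates 4, 10, 12 and 16. PBS replicate 12 thus stood with the exposed libraries, and PM2.5 replicate 9 stood between the groups. The S phase genes deviated by -0.15 to 0.09 with PM2.5 and by -0.15 to 0.08 with PBS. The SD within groups was 0.25 for mitosis and 0.11 for S phase. The mitosis minus S phase difference was -0.10, 0.40, 0.43 and 0.21 with PM2.5 and -0.16, -0.48, 0.15 and -0.34 with PBS, so the groups overlapped, with an SD within groups of 0.26. The difference between the medians of log2 fold changes, 0.39, was 0.13 without PM2.5 replicate 18. PBS replicate 12 was the highest control for 18 of the 22 mitosis genes tested and for 4 of the 15 S phase genes, and PM2.5 replicate 18 was the highest library for 15 and 3.

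Under TMM, erythroid markers were high in the same libraries as the mitosis genes, and B cell markers were low in those libraries. The TMM factor was lowest in PM2.5 replicates 17 and 18 and PBS replicate 12, at 0.6437, 0.6381 and 0.8323. A lower factor gives a higher CPM for the same counts. Deviations under library totals were not computed. All 11 erythroid markers outside haemoglobin that were tested had positive log2 fold changes under TMM and 2 under library totals, and their summed level was 16246 to 27892 CPM with PM2.5 and 13042 to 21357 CPM with PBS. Their median deviation was -0.20, 0.43, 0.44 and 0.18 with PM2.5 and -0.26, -0.55, 0.15 and -0.13 with PBS. That of the B cell markers was -0.27, -0.20, -0.44 and -0.06 with PM2.5 and 0.33, 0.57, -0.26 and 0.43 with PBS. With the erythroid level as a covariate, the median log2 fold change was 0.19 for mitosis and 0.11 for S phase, and Kif11 was at 0.65 (edgeR adjusted p = 0.506). All 8 markers of nucleated red cell precursors were positive under TMM and none under library totals. They summed to 82.6 to 159 CPM with PM2.5 and 61.6 to 105 CPM with PBS. Their median deviation was -0.09, 0.50, 0.29 and 0.22 with PM2.5 and 0.06, -0.53, -0.24 and 0.06 with PBS. In PBS replicates 4, 12 and 16 its sign was opposite to that of the mitosis genes and of the erythroid markers. In bulk RNA, fewer cells of a type and less RNA per cell cannot be told apart.

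Other cell types that could hold dividing cells were counted as well. Of 11 markers of neutrophil precursors, Elane, Mpo, Ctsg and Fcnb were at 0 in every library, and the list summed to 1.76 to 3.23 CPM with PM2.5 and 0.54 to 1.14 CPM with PBS, without overlap. Only 2 of them, Lcn2 and Mmp8, were tested, and both were called higher with PM2.5, at log2 fold changes of 1.47 to 2.04. Under library totals these ran from 0.92 to 1.53, and only Mmp8 was called. Of 6 markers of pro-B and pre-B cells, Rag2, Vpreb1, Vpreb2 and Igll1 were at 0 in every library, and the sum did not exceed 0.0457 CPM. The 6 stem and progenitor markers summed to 1.63 to 2.89 CPM with PM2.5 and 1.71 to 2.66 CPM with PBS. All 9 B cell markers had negative log2 fold changes, with 35.8 to 46.6 CPM in sum with PM2.5 and 42.6 to 69.8 CPM with PBS. Lists of mature cells were also higher under TMM: 6 of 6 neutrophil markers were positive (3 called, median 0.94), 7 of 7 monocyte markers (3 called, median 0.58) and 5 of 5 natural killer cell markers (1 called, median 0.68). Under library totals these medians were 0.38, 0.06 and -0.02. Under TMM 6 of 6 platelet, 4 of 4 brain and 7 of 9 T cell markers tested were also positive. Their medians were 0.35, 0.28 and 0.17, and -0.21, -0.28 and -0.37 under library totals, and none was called. The part of these lists in the mitosis result was not tested.

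**Figure D4:**
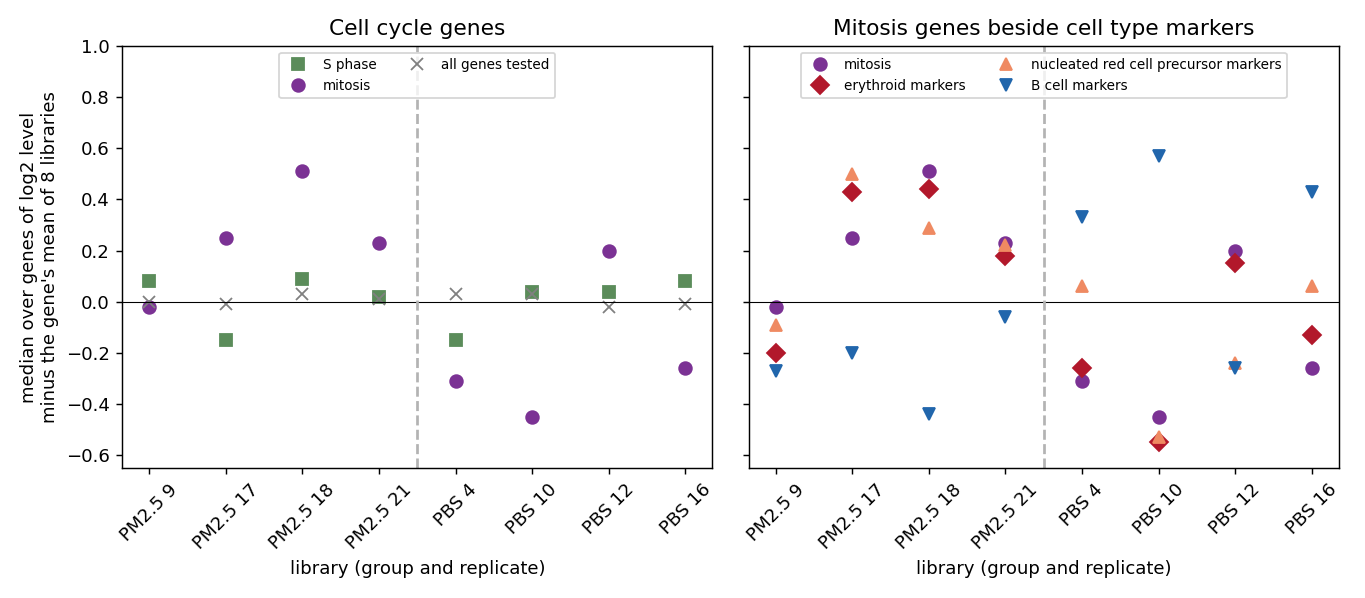
Median deviation from each gene's own mean log2 level (TMM-scaled CPM) in each of the 8 libraries. The left panel shows S phase and mitosis genes and all genes tested. The right panel shows mitosis genes beside markers of red cells, their nucleated precursors and B cells. The mitosis genes range from -0.45 in PBS replicate 10 to 0.51 in PM2.5 replicate 18 and lie beside the erythroid markers, while the S phase genes stay between -0.15 and 0.09.

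In the wider cell cycle no gene passed the test. In 4 further lists of 123 genes, 106 were tested, none had an edgeR adjusted p under 0.05, and 18 had an unadjusted p under 0.05, where 1868 of all 10361 genes did, a like share. DESeq2 called 2 genes of these lists, Cdkn2c and Cdkn2d. Of 39 other replication genes tested, 23 were positive under TMM and 2 under library totals, with median log2 fold changes of 0.06 and -0.50. The smallest p-values were those of Dbf4, which activates the replication kinase Cdc7 (-0.66, edgeR adjusted p = 0.136), Orc1, the largest subunit of the origin recognition complex (0.71, adjusted p = 0.151), and Pold1, the catalytic subunit of DNA polymerase delta (-0.48, adjusted p = 0.155). Of 42 other mitosis genes tested, 36 were positive under TMM and 8 under library totals, with medians of 0.30 and -0.26. They were led by Anln, which organises the cleavage furrow (0.61, adjusted p = 0.145), Kif15, a spindle motor (0.73, adjusted p = 0.149), and Cenpa, the centromeric histone (-0.44, adjusted p = 0.164).

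Genes that act before S phase and those that stop the cycle had medians above that of all genes under either scaling. Of 13 genes of G1 cyclins, kinases and E2F partners, 8 were positive under TMM and 3 under library totals, with medians of 0.20 and -0.36, and the E2F partners Tfdp1 and Tfdp2 were at 0.67 (edgeR adjusted p = 0.201) and 0.55 (adjusted p = 0.248). Skp2, which marks the inhibitor p27 for destruction, was at 0.59 (adjusted p = 0.394). Of 12 cell cycle inhibitors tested, 9 were positive under TMM and 2 under library totals, with medians of 0.35 and -0.24. Cdkn2d, the CDK4 and CDK6 inhibitor p19, came closest, at 3.75, 4.53, 4.14 and 3.42 CPM with PM2.5 and at 2.75, 2.54, 2.82 and 2.38 CPM with PBS. Its groups did not overlap, and the log2 fold change was 0.59 (SE 0.15, edgeR adjusted p = 0.0555). Cdkn2c, the related inhibitor p18, was at 0.84 (SE 0.22, edgeR adjusted p = 0.0587) with overlapping groups. Cdkn1b, p27, was at 0.38 (edgeR adjusted p = 0.251). These values are under TMM, and under library totals no inhibitor tested was above 0.23 and none was called.

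**Figure D5:**
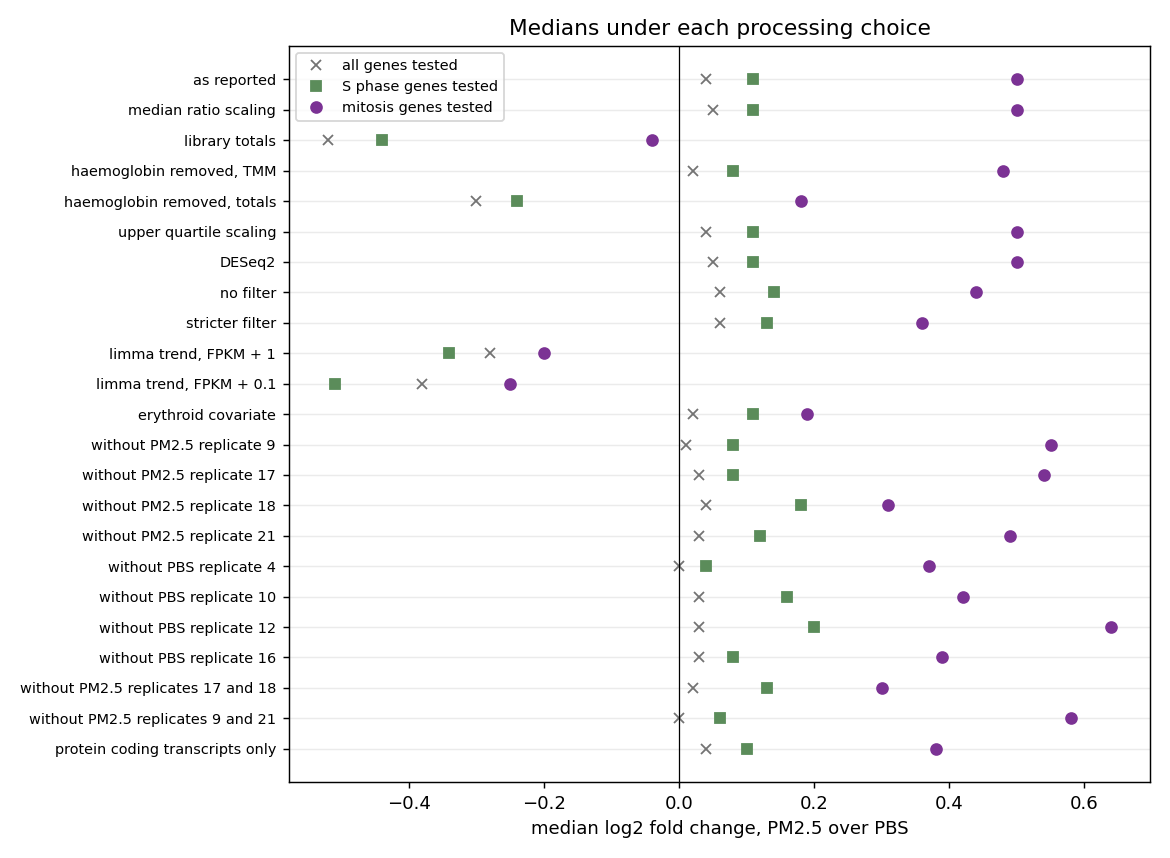
Median log2 fold change (PM2.5 over PBS) of the S phase genes, the mitosis genes and all genes tested under each processing choice, 1 row a choice. The mitosis median lies to the right of the S phase median in every row, by 0.39 as reported, 0.41 under library totals and 0.08 with the erythroid covariate, and scaling to totals shifts all 3 to the left.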

How the data were processed

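Per the labels' protocols, the 8 libraries (4 per group) were made from total RNA with random priming and dUTP strand marking. Reads were handled with HISAT2 2.0.1, cutadapt 1.9.1 and bcl2fastq 2.17.1.14 on build GRCm38, per the submitters' processing notes, and the counting tool is not given in the sources used here. The authors deposited expected counts (estimated counts, not normalized, 24.5% of them not whole within 0.001) and FPKM for 118783 transcripts. FPKM was scaled by length and library by the authors, per the file headers. Of these, 116710 transcripts were matched to GENCODE M21 and summed to 35944 genes, and the other 2073, with 0.0266% to 0.0532% of the counts, were left out. Counts of every pair of libraries differed by more than sampling noise (chi-square per degree of freedom 16.3 to 72.8 over 28 pairs).

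Rounded counts entered the quasi-likelihood test of edgeR 4.0.16 (R 4.3.3, two-sided, TMM, filterByExpr at 10 counts and 15 in total), adjusted by Benjamini-Hochberg over all 10361 genes tested, threshold 0.05. The SE is the log2 fold change over the square root of F, an approximation. The fitting script was tested on simulated data. Deviations per library are medians of log2(CPM + 0.05). Alternatives used DESeq2 1.42.0 and limma 3.58.1, other scalings and filters, a covariate, and each library left out.

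The members, the gene lists and the tests were chosen with earlier results of these data known. Values by library are given for genes that passed, whose groups did not overlap, the 4 highest in FPKM and the 4 largest differences of each phase, and any with a count of 0. Of each further list the 3 smallest p-values are named. Other genes are named to account for all members. Promoters were to be the first 2 holders of each phase's motif by FPKM. Those with the motif only after the start or within an annotated exon were then passed over, and Kif11 was added. Medians over lists carry no test.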

Additional observations from a re-analysis of the deposited data

Results flagged for a closer look

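In each of 74 groups of 4 libraries (37 tested genes in 2 groups), the gap between the most extreme library and its neighbour was divided by the group's range and compared with Dixon's 95% critical value. It was exceeded in 5 groups, where chance gives about 1 in 20. PBS replicate 12 was the high library in 3 of them, all mitosis genes: Bub1b at 7.79 CPM against 3.61 to 3.88 CPM in the other controls, Ube2c at 62.3 CPM against 36.1 to 40.1, and Tpx2 at 2.15 CPM against 1.32 to 1.35. Mcm2 was low in PM2.5 replicate 17, at 1.30 CPM against 1.91 to 1.94 in the other exposed libraries. Aurka was high in PM2.5 replicate 21, at 0.392 CPM against 0.296 to 0.311.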

How the results depend on the processing

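No paired analysis was possible because the groups share no replicate numbers. Median ratio and upper quartile scaling kept the reported medians and the call of Kif11. Scaling to library totals called 483 genes, with Cdt1 in place of Kif11, and gave medians of -0.44 (S phase) and -0.04 (mitosis), with Pcna at -0.47, Rrm2 at -0.22, Ccna2 at -0.26, Ube2c at -0.22 and Nusap1 at -0.17. With haemoglobin removed, TMM called 0 of the 40 (Kif11 adjusted p = 0.0519), and totals called 0, with medians of -0.24 and 0.18, Pcna at -0.24, Ccna2 at -0.03 and Ube2c at -0.01. Relative to all genes, whose median moved to -0.52 and -0.30, mitosis lay 0.49 and 0.48 higher, against 0.46 as reported, 0.07 and 0.13 in the limma fits below, 0.17 with the erythroid covariate and 0.27 without PM2.5 replicate 18. DESeq2 called 371 genes, 4 members and 2 genes of the further lists. Without a filter edgeR called 624, 4 members (Cdt1, Bub1b, Kif11, Hmmr) and 4 further genes, and a stricter filter called 2 further genes. Limma on log2(FPKM + 1) called 0 genes and 0 members, with medians of -0.34 (5 S phase genes) and -0.20 (9 mitosis genes), Pcna at -0.34, Rrm2 at -0.11, Ccna2 at -0.21, Ube2c at -0.23 and Nusap1 at -0.18. With a pseudocount of 0.1 it called 0 and 0, with medians of -0.51 and -0.25, Pcna at -0.51, Rrm2 at -0.15, Ccna2 at -0.25, Ube2c at -0.24 and Nusap1 at -0.19. With the erythroid covariate edgeR called 0 genes and 0 members, the mitosis median was 0.19 and the phase difference 0.08, with Cdc6 at -0.06, Ccna2 at -0.15 and Ube2c at -0.06. Protein coding transcripts alone gave 49 genes and 0 members. Leaving out 1 library gave 31 to 192 genes, 0 to 3 members, 0 to 5 further genes, medians of 0.04 to 0.20 (S phase) and 0.31 to 0.64 (mitosis) and a phase difference of 0.13 to 0.47. Without PM2.5 replicates 17 and 18 there were 8 genes and 0 members, and without 9 and 21 the members had 1 call, Cdt1, and the further lists 1. The causes were not tested. Depth limits members such as Cdc20, with 40 and 58 counts in the groups, where the SE was 0.45.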
